A study of Mus musculus with 6 samples.

Results

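Prostanoids act on the cell that made them or on its neighbours through a small family of receptors, and the genes of these receptors were examined in fetal mouse ovaries after exposure to acetaminophen (APAP) and ibuprofen (IBU). The set holds 10 genes, chosen by name, of the 48709 genes of the count table. They are the 4 receptors of prostaglandin E2 (Ptger1, Ptger2, Ptger3 and Ptger4), the receptors of prostaglandin D2 (Ptgdr and Ptgdr2), of prostaglandin F2a (Ptgfr), of prostacyclin (Ptgir) and of thromboxane (Tbxa2r), and the prostaglandin transporter Slco2a1. Each symbol matched a single Ensembl identifier of the table.

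Cyclooxygenases, the enzymes that ibuprofen blocks, turn arachidonic acid into a common precursor from which separate synthases make prostaglandins E2, D2 and F2a, prostacyclin and thromboxane. The receptors are G protein-coupled. Ptger2, Ptger4, Ptgdr and Ptgir act through Gs and raise cyclic AMP, Ptger3 and Ptgdr2 act through Gi and lower it, and Ptger1, Ptgfr and Tbxa2r raise intracellular calcium, mainly through Gq. Slco2a1 takes prostaglandins up from outside the cell, after which Hpgd, the prostaglandin dehydrogenase, inactivates them. In the fetal gonad, prostaglandin D2 is best known from the testis, where it helps to maintain Sox9 in the supporting cells.

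Wild-type CD1 dams were gavaged 4 times per day, every 3 h, from 10.5 to 13.5 days post coitum (dpc), with APAP at 30 and IBU at 15 mg/kg per day in alternation, or with ethanol, the diluent, as control. Ovaries of their 13.5 dpc embryos were pooled, and RNA of 3 control and 3 APAP+IBU pools was sequenced as stranded, polyadenylated libraries. Both drugs stand in the exposure label and in the methods, but the sample titles of the exposed pools mention IBU only. The pools hold whole gonads, so fewer cells of a type and less RNA per cell cannot be told apart.

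Total counts ran from 37811968 to 48954631 per library. Levels are normalised counts (CPM, the count scaled to the library size after TMM normalisation), on which scale 1 count is worth 0.0197 to 0.0268 CPM. Germ cell and ovarian markers were present in each library, with 190 to 268 CPM of the germ cell helicase Ddx4, 106 to 203 CPM of Wnt4 and 0.944 to 8.15 CPM of Foxl2, the granulosa cell factor. The testis-determining gene Sry had 0 counts in all 6 libraries, whereas Sox9, also a fetal testis marker, was at 5.36 to 10.6 CPM. Whether the pools held male tissue was not tested. Replicate 3 of each group stood apart through liver genes, since 15 liver markers summed to 2089 CPM in the control pool and 3383 CPM in the exposed pool of that number, and to 202 to 585 CPM in the remaining 4. Results are given with all 6 libraries and, where stated, also with replicates 1 and 2 of each group only.

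Expression of the family was low. Slco2a1 and Tbxa2r had the highest counts, with 2019 and 1365 counts over the 6 libraries. Ptgfr (898), Ptger3 (836), Ptger4 (786) and Ptger1 (528) followed, then Ptgir (155) and Ptger2 (133). The prostaglandin D2 receptors were close to the detection limit, with 32 counts of Ptgdr2 and 17 of Ptgdr in all. The expression filter of edgeR kept 20167 genes of the table, and 8 of the 10 genes were among them, while Ptgdr and Ptgdr2 were not.

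**Figure D1:**
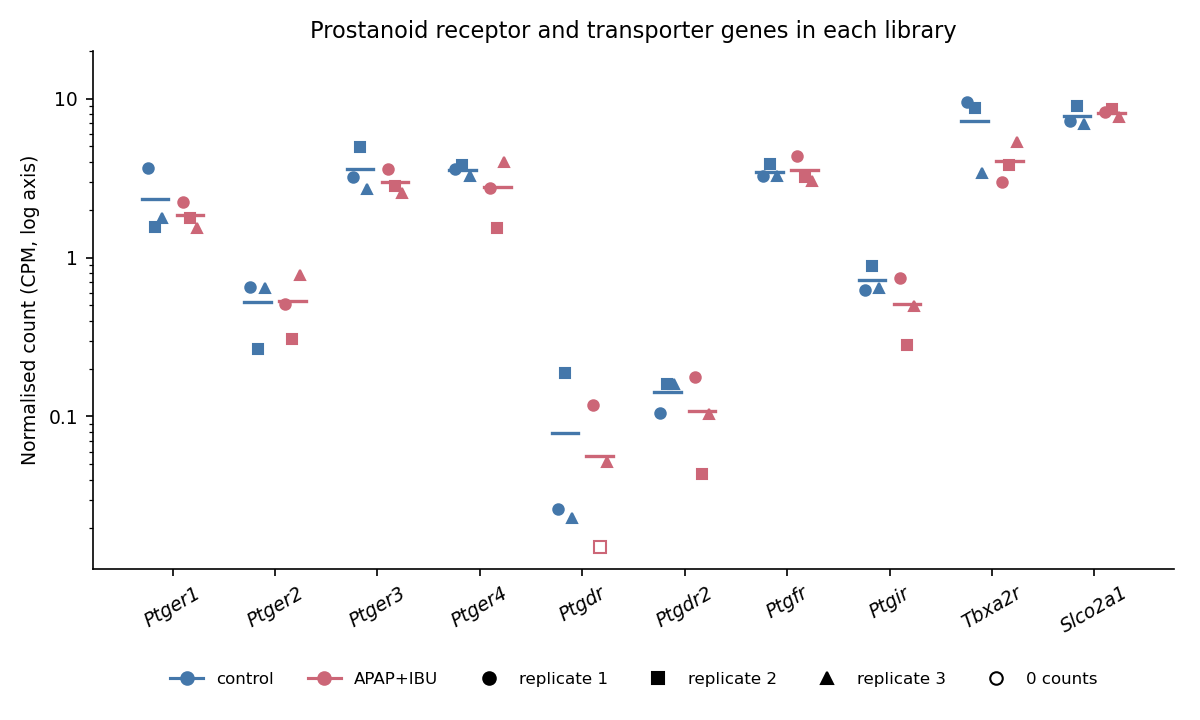
Normalised counts (CPM, log axis) of the 10 genes in the 3 control (blue) and 3 APAP+IBU (red) libraries; symbols mark the replicate, horizontal bars the group means, and the open square a library with 0 counts, drawn at the foot of the axis. The groups overlapped for each gene, and Ptgdr and Ptgdr2 lay under 0.2 CPM throughout.

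To compare genes with each other, CPM was divided by the merged exon length in kilobases. On this scale Tbxa2r came first with 2.93 ± 1.47 CPM per kb (SD, n = 6 libraries), and 52.9% of the protein-coding genes of the table had a lower mean. Then came Slco2a1 (0.586 ± 0.0607), Ptger3 (0.582 ± 0.157), Ptgfr (0.518 ± 0.0754), Ptger4 (0.476 ± 0.137) and Ptger1 (0.382 ± 0.147), each with 34.9% to 38.4% of protein-coding genes below it. Ptgir (0.184 ± 0.0622), Ptger2 (0.102 ± 0.0396), Ptgdr2 (0.0474 ± 0.0191) and Ptgdr (0.0213 ± 0.0224 CPM per kb) closed the order.

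Tbxa2r was above Slco2a1 in 6 of 6 libraries, as was Ptger1 above Ptgir and Ptgdr2 above Ptgdr. In an exact two-sided sign-flip permutation test over the 6 libraries these 3 steps had p = 0.03125, the smallest p that 6 libraries allow, and 0.09375 after Benjamini-Hochberg adjustment over the 9 neighbouring pairs. Among Slco2a1, Ptger3, Ptgfr, Ptger4 and Ptger1, neighbours did not differ beyond their spread, with exact permutation p from 0.25 to 0.9375. The lowest library of Tbxa2r (1.55 CPM per kb) was nevertheless above the highest library of every other member, which was Ptger3 in control replicate 2 with 0.87 CPM per kb.

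In 4 of the 6 libraries Tbxa2r made up more than 50% of the summed receptor level per length. Its share of the sum of the 9 receptors was 65.3%, 62.4% and 45% in control libraries 1 to 3, against 37.9%, 54% and 56.5% after exposure. The 4 prostaglandin E2 receptors together made up 24.4% to 38.2%, and the prostaglandin D2 receptors 0.451% to 2.55%. Grouped by G protein, the receptors that raise calcium made up 73.4 ± 7.52% (SD, n = 3) in control and 70.3 ± 6.08% (SD, n = 3) in exposed ovaries. The Gs-coupled receptors made up 15.1 ± 5.02% and 15.9 ± 4.97%, and the Gi-coupled receptors 11.5 ± 3.03% and 13.7 ± 3.66%. None of these shares separated the groups, with exact two-sided permutation p from 0.4 to 1 for the classes of G protein, where 3 libraries against 3 cannot go below 0.1.

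**Figure D2:**
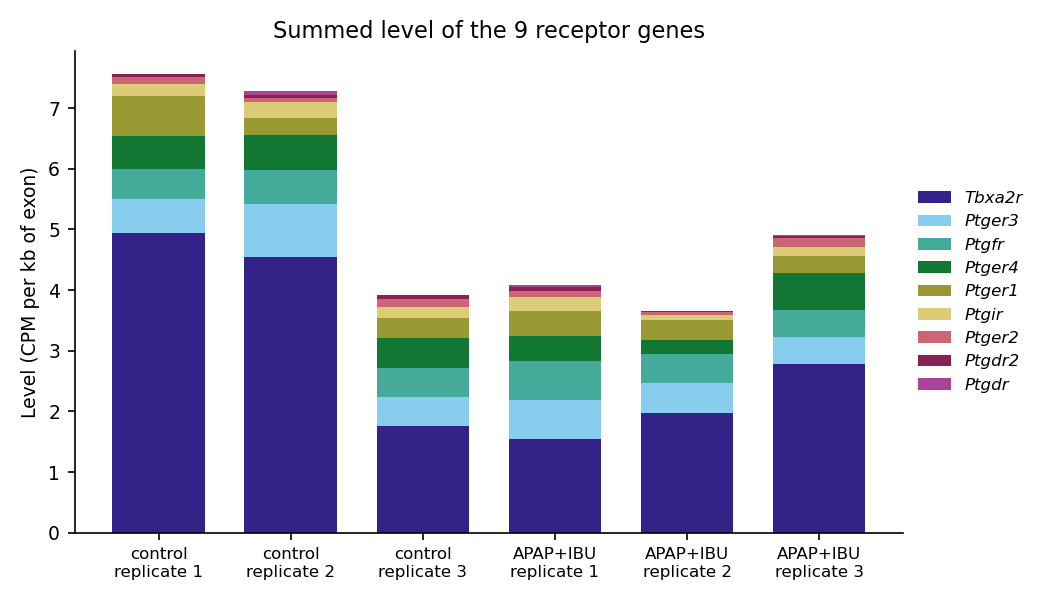
Level per length (CPM per kb of merged exon) of the 9 receptor genes, stacked for each of the 6 libraries. Control replicates 1 and 2 reached 7.57 and 7.28 CPM per kb, and the other 4 libraries 3.66 to 4.91, with Tbxa2r as the main difference.

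With all 6 libraries, 0 of the 8 tested genes passed an adjusted p of 0.05 in edgeR's quasi-likelihood test, as did 0 of the 20167 tested genes, a background of 0%. At an unadjusted p under 0.05, 0 of the 8 passed in edgeR, against 6.22% of all tested genes. DESeq2 called 0 members after adjustment (background 0.849%) and 1 member, Tbxa2r, before it (background 5.85%). The control and exposed libraries of no member were fully apart, against 10.7% of tested genes whose groups did not overlap (4.78% higher and 5.92% lower after exposure). The median log2 fold change was -0.30 over the 8 genes and -0.0047 over all tested genes, and 5 of the 8 were below 0, as were 50.6% of all tested genes.

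How large a change these libraries could have missed differed between the genes. For Slco2a1, Ptgfr and Ptger3 the 95% interval of the fitted fold lay wholly within a 2-fold change in either direction, as it did for 63.8% of all tested genes. For Slco2a1 it ran from a fold of 0.783 to 1.43 and for Ptgfr from 0.696 to 1.5, while for Ptger3 its lower end was at 0.516. For the other 5 tested genes a 2-fold decrease was not outside the interval.

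**Figure D3:**
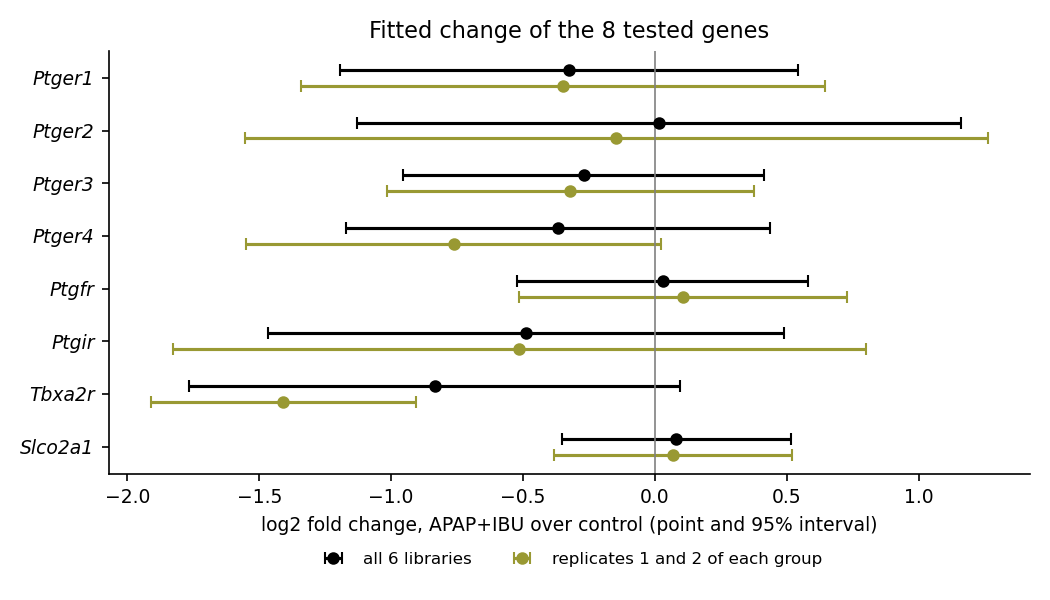
Fitted log2 fold change (APAP+IBU over control) of the 8 tested genes with its 95% interval, from all 6 libraries (black) and from replicates 1 and 2 of each group (olive). With all 6 libraries each interval included 0, and with replicates 1 and 2 the interval of Tbxa2r (-1.91 to -0.91) did not.

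Tbxa2r (ENSMUSG00000034881), the thromboxane receptor known from platelets and vascular smooth muscle, lies on the plus strand of chromosome 10 (GRCm38, from 81328731 to 81335172). In control replicates 1, 2 and 3 it was measured at 9.49, 8.72 and 3.38 CPM, and in the exposed replicates at 2.97, 3.8 and 5.33 CPM. Control replicates 1 and 2 were thus the high libraries, while control replicate 3 lay among the exposed ones. The control mean was 7.2 ± 3.33 CPM (SD, n = 3), and the exposed mean 4.03 ± 1.2 CPM (SD, n = 3). This gave a log2 fold change of -0.84 (standard error, SE, 0.40, edgeR adjusted p = 0.692), and the exact two-sided permutation test gave p = 0.3.

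With replicates 1 and 2 of each group only, Tbxa2r fell by 1.41 on the log2 scale (SE 0.21, edgeR adjusted p = 0.00695), to 0.377 of the control level. In those 4 libraries 27.2% of the 20633 tested genes were called (12.9% lower), and 1 of the 8 members was a share no higher than that. No member had both exposed libraries above both controls, as 33.3% of tested genes did. The call thus rested on leaving out the replicate 3 libraries. Without control replicate 3 alone, the log2 fold change of Tbxa2r was -1.18 (edgeR adjusted p = 0.051).

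Tbxa2r has the shortest merged exons (1919 bp) and the highest GC content (62.5% in its longest transcript) of the 10 genes, and 98.8% of tested genes had a lower GC content. With a correction for these features in each library, its log2 fold change over all 6 was -0.52 (SE 0.21, edgeR adjusted p = 0.529). With replicates 1 and 2 it moved from -1.41 to -0.76 (edgeR adjusted p = 0.0426, where 13.9% of tested genes were called).

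The neighbouring genes were read beside Tbxa2r. Cactin, a splicing factor gene that ends 2488 bp upstream of Tbxa2r on the same strand, had 59.3, 39.7 and 24.5 CPM in control and 30.2, 35.4 and 44.6 CPM in exposed replicates 1, 2 and 3. Its highest libraries after control replicate 1 were thus APAP+IBU replicate 3 and control replicate 2. Gipc3, which ends 92 bp downstream on the other strand, was at 0.0921 to 0.268 CPM.

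Marker lists of other cells were read beside Tbxa2r. All 8 platelet and megakaryocyte markers were detected, and they summed to 29.9, 25 and 21.2 CPM in control and 12, 18.2 and 31.1 CPM in exposed replicates 1, 2 and 3, which overlapped. The defining platelet gene Pf4 was at 3.25 to 9.46 CPM. Of the 8 markers, Gp1bb, a subunit of the platelet receptor of von Willebrand factor, was the 1 whose groups did not overlap (log2 fold change -1.28, edgeR adjusted p = 0.692), where the background is 10.7%. The other 7 overlapped, from -0.46 (Ppbp) to 0.34 (Gp1ba) on the log2 scale.

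The 8 fetal testis markers summed to 31, 52.1 and 22.6 CPM in control and 28.1, 24.4 and 26.8 CPM in exposed replicates 1, 2 and 3. Sry was at 0, and the groups of the others overlapped. Log2 fold changes of the tested ones ran from -1.40 (Amh) to -0.15 (Fgf9). The Sertoli cell hormone gene Amh was at 2.49, 2.6 and 0.253 against 0.768, 0.742 and 0.494 CPM. Hsd3b1 was at 8.62, 22.8 and 9.05 against 12.2, 12.1 and 11.3 CPM. The 12 spermatid markers, all detected, summed to 150, 45.8 and 41.7 CPM in control and to 6.74, 2.53 and 3.72 CPM in exposed libraries. Of these, Prm1, Smcp, Meig1, Tnp1, Cetn1, Odf1, Fabp9, Prm2, Tnp2, Spata4 and Crisp2 did not overlap between the groups, all lower, where the background is 5.92%. Their log2 fold changes ran from -5.26 (Prm1) to -3.74 (Crisp2), with adjusted p from 0.0906 to 0.12 in edgeR's test. Acr overlapped, at -0.036. The source of the spermatid RNA in these ovary pools was not tested. Over the 6 libraries, Pearson's r of Tbxa2r with the mean log2 CPM of a list was 0.855 for fetal testis and 0.818 for fetal germ cell markers. It was 0.682 for macrophage, 0.673 for platelet and 0.618 for spermatid markers. The other lists were lower, among them the pericyte and smooth muscle markers with 0.497. The part of any of these cells in the level of Tbxa2r was not tested.

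**Figure D4:**
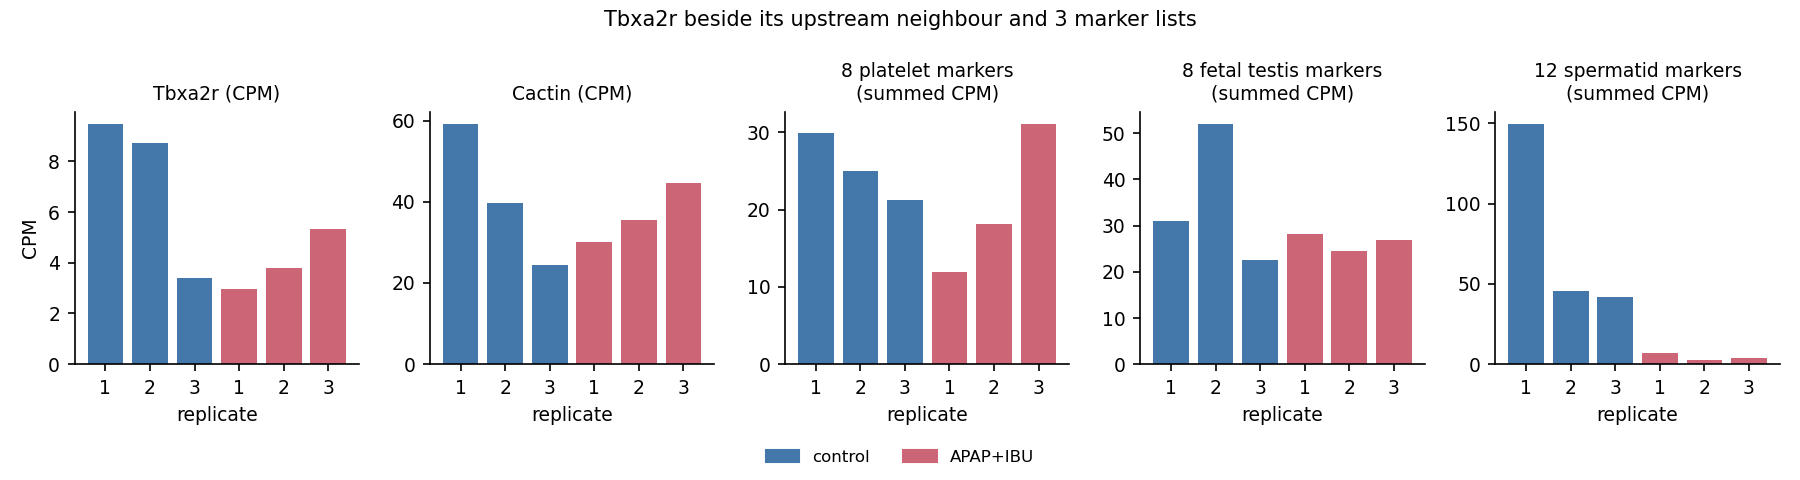
Level in each library (CPM, linear axes from 0) of Tbxa2r, of its upstream neighbour Cactin, and of 3 marker lists as summed CPM, for control (blue) and APAP+IBU (red) replicates 1, 2 and 3. Only the spermatid sum separated the groups, at 41.7 CPM or more in control and 6.74 CPM or less in exposed libraries.

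Over the 6 libraries, the tested genes most like Tbxa2r in log2 CPM were Psme2b (Pearson's r = 1 to 2 decimals), a proteasome activator gene, Pfdn5 (r = 0.999), a prefoldin chaperone subunit, and Dll3 (r = 0.999), a Notch ligand. In all, 2003 of the 20167 tested genes had r over 0.9 with Tbxa2r. For Slco2a1, second in level per length, 58 tested genes had r over 0.9, and the nearest were Mok (0.992), Baat (0.981) and Selenoo (0.975). These 6 points share their libraries and normalisation, and the values are descriptions.

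Slco2a1 (ENSMUSG00000032548) lies on the plus strand of chromosome 9 from 102988712 to 103096002. It was the steadiest member, with 7.21, 9.04 and 6.9 CPM in control and 8.2, 8.6 and 7.7 CPM in exposed replicates 1, 2 and 3. The exposed libraries all fell inside the range of the controls, and the highest library had 1.31 times the level of the lowest. Exposed over control, this was a log2 fold change of 0.081 (SE 0.19, edgeR adjusted p = 0.887). Slco2a1 is known from endothelium, and the 8 endothelial markers summed to 523, 540 and 563 CPM in control and 497, 440 and 502 CPM in exposed libraries. Of the 8, only Tek had groups that did not overlap (log2 fold change -0.30, edgeR adjusted p = 0.692), where the background is 10.7%. The others overlapped, among them Pecam1, Cdh5 and Kdr, the most abundant of the 8. Log2 fold changes of the 8 ran from -0.33 (Pecam1) to 0.020 (Cdh5). The groups of the endothelial sum did not overlap, with lower values after exposure, whereas those of Slco2a1 overlapped. The part of endothelial cells in the level of Slco2a1 was not tested.

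Of the prostaglandin E2 receptors, Ptger3 (ENSMUSG00000040016, chromosome 3, from 157566892 to 157645888, plus strand), which lowers cyclic AMP, had the highest mean per length, although Ptger4 or Ptger1 was above it in some libraries. It had 3.22, 4.95 and 2.69 CPM in control and 3.63, 2.81 and 2.55 CPM in exposed replicates 1, 2 and 3. One control library stood above the rest, and the other 5 overlapped (log2 fold change -0.27, SE 0.30, edgeR adjusted p = 0.769). Without that library, control replicate 2, the sign turned, to 0.020.

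Ptger4 (ENSMUSG00000039942, chromosome 15, from 5206661 to 5244187, minus strand) raises cyclic AMP and is widely used by macrophages and vessels. Its level was 3.62, 3.8 and 3.27 CPM in control and 2.76, 1.53 and 4.01 CPM in exposed replicates 1, 2 and 3. The controls lay close together, and the exposed libraries held both the lowest and the highest value. The log2 fold change was -0.37 (SE 0.35, edgeR adjusted p = 0.745), and it was -0.083 without APAP+IBU replicate 2 and -0.75 without APAP+IBU replicate 3.

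In replicates 1 and 2, both exposed libraries of Ptger4 were below both controls (as for 35.5% of tested genes, and for Tbxa2r), at a log2 fold change of -0.76 (SE 0.33, edgeR adjusted p = 0.131). Only with the length and GC correction did it pass there, at -1.11 (edgeR adjusted p = 0.0488, where 8.25% of tested genes were called lower). The 8 macrophage markers, all detected, summed to 107, 117 and 109 CPM in control and 81.3, 76.4 and 106 CPM in exposed replicates 1, 2 and 3. Over the 6 libraries, Pearson's r of Ptger4 with the mean log2 CPM of these markers was 0.861. It was higher for the mesonephros (0.947) and endothelial markers (0.886), 0.835 for neuron and glia markers, and lower for the other lists. The part of any of these cells in the level of Ptger4 was not tested.

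Ptger1 (ENSMUSG00000019464, chromosome 8, from 83666678 to 83672753, plus strand) had 3.64, 1.55 and 1.77 CPM in control and 2.25, 1.77 and 1.53 CPM in exposed replicates 1, 2 and 3. Control replicate 1 alone was high. The log2 fold change was -0.33 (SE 0.38, edgeR adjusted p = 0.777), and it changed sign to 0.15 without that library.

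Ptger2 (ENSMUSG00000037759, chromosome 14, from 44988195 to 45003820, plus strand), the second Gs-coupled receptor of prostaglandin E2, was the lowest of the 4. It had 0.655, 0.268 and 0.644 CPM in control and 0.512, 0.305 and 0.78 CPM in exposed replicates 1, 2 and 3, from 10 to 30 counts per library. Replicate 2 was the lowest library in both groups. The log2 fold change was 0.014 (SE 0.50, edgeR adjusted p = 0.993). The 95% interval of the fold ran from 0.457 to 2.23, so a change within it was not excluded. Its width holds both the low counts and the spread between pools.

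Ptgfr (ENSMUSG00000028036, chromosome 3, from 151796502 to 151837630, minus strand), the prostaglandin F2a receptor that acts in luteolysis in the adult ovary, was the steadiest receptor. Its level was 3.28, 3.88 and 3.27 CPM in control and 4.37, 3.21 and 3.04 CPM in exposed replicates 1, 2 and 3. The exposed libraries held the highest value and the lowest ones, and the highest was 1.44 times the lowest. They differed by a log2 fold change of 0.029 (SE 0.24, edgeR adjusted p = 0.97).

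Ptgir (ENSMUSG00000043017, chromosome 7, from 16906490 to 16910905, plus strand), the prostacyclin receptor of platelets and vessel walls, had 0.629, 0.883 and 0.644 CPM in control and 0.749, 0.284 and 0.494 CPM in exposed replicates 1, 2 and 3. APAP+IBU replicate 2 was the lowest library, as it was for Ptger4 and for the endothelial markers. The log2 fold change was -0.49 (SE 0.42, edgeR adjusted p = 0.724), and it was -0.21 without that library and -0.89 without APAP+IBU replicate 1.

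The prostaglandin D2 receptors had 9 counts or fewer in each library. Ptgdr (ENSMUSG00000071489, chromosome 14, from 44851235 to 44859375, minus strand), the Gs-coupled receptor, had 1, 7 and 1 counts in control and 6, 0 and 2 counts in exposed replicates 1, 2 and 3. The library at 0 allows up to 0.0655 CPM (3 counts). The groups summed to 9 counts (exact Poisson 95% interval 4.12 to 17.1) and 8 counts (3.45 to 15.8), and these intervals cover counting error only.

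Ptgdr2 (ENSMUSG00000034117, chromosome 19, from 10937160 to 10942511, plus strand), the Gi-coupled receptor known from T helper 2 cells, had 4, 6 and 7 counts in control and 9, 2 and 4 counts in exposed libraries. In a fit of all genes with at least 1 count, the log2 fold change was -0.38 (SE 1.18) for Ptgdr and -0.36 (SE 0.75) for Ptgdr2, so no difference was detectable at this depth. Across from the exons of Ptgdr2, 39% (1031 bp) hold exons of Ccdc86 on the other strand, which was at 20.1 to 31.8 CPM. Reads there count for the right gene only if the counting used strand, which is not stated. Of 61 genes that lie wholly inside an exon of a gene of the other strand with at least 1000 counts, 52 had counts, against 2 of 16 inside a gene of the same strand.

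Several members share their surroundings in the genome. Ptger2 and Ptgdr, both Gs-coupled, are next to each other on chromosome 14, 128819 bp apart and on opposite strands, with no other protein-coding gene between them. Each of the 3 receptors that raise calcium lies next to a member of the Gipc family of PDZ domain scaffold genes, with Gipc1 1983 bp from Ptger1, Gipc3 92 bp from Tbxa2r and Gipc2 255902 bp from Ptgfr as the nearest protein-coding gene on that side. The levels in a pair differed, since Gipc1 was at 45.7 to 120 CPM beside Ptger1 at 1.53 to 3.64 CPM, and Gipc2 at 1.09 to 3.05 CPM beside Ptgfr at 3.04 to 4.37 CPM. The longest annotated proteins of the receptors have 341 (Tbxa2r) to 513 (Ptger4) residues, and that of Slco2a1 has 643.

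Around the receptors, 72 genes of the same pathway were followed in 7 lists, of which 71 were tested. With all 6 libraries 0 of them were called in edgeR's test. An unadjusted p under 0.05 in that test was reached by 4 (5.63%), against 6.22% of all tested genes. These were Ptgds and Ptgr1, lower, and Adcy9 and Grk4, higher. Groups did not overlap for 4 genes (5.63%), Ptges3, Ptgds, Ptgr1 and Adcy2, all lower, against the background of 10.7%. With replicates 1 and 2 only, 28.2% (20 of 71) were called, 9 higher and 11 lower, against the background of 27.2% (14.2% higher and 12.9% lower).

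On the side of the ligands, 10 of the 11 synthesis genes had a log2 fold change below 0 (background 50.6%), with a median of -0.27 and 0 called with all 6 libraries. The median was -0.45 with replicates 1 and 2, and 5 were called lower (Ptges2, Ptgds, Ptgis, Akr1b3 and Prxl2b), where the background is 12.9%. The largest difference was in Ptgds, a synthase of prostaglandin D2, with 4.85, 2.03 and 1.86 CPM in control and 1.28, 1.03 and 1.3 CPM in exposed replicates 1, 2 and 3. Each control library was above each exposed one (log2 fold change -1.28, SE 0.41, edgeR adjusted p = 0.692, exact two-sided permutation p = 0.1). The cyclooxygenases were Ptgs1 at 14 ± 2.11 CPM and Ptgs2 at 0.337 ± 0.153 CPM in controls (SD, n = 3), and 11.6 ± 1.29 and 0.328 ± 0.0483 CPM after exposure (SD, n = 3). On a scale per length, Ptgs1 (3.29 CPM per kb) was thus near Tbxa2r, and Ptgs2 (0.0726) between Ptger2 and Ptgdr2.

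For clearance, the 7 genes of export and breakdown had a median log2 fold change of -0.085, and of -0.097 with replicates 1 and 2. In the latter fit 2 were called lower, Ptgr1 and Cbr1, where the background is 12.9%. Hpgd, the partner of Slco2a1, had 7.79 ± 0.385 CPM in control and 7.52 ± 1.93 CPM in exposed ovaries (SD, n = 3), and the exporter Abcc4 17.9 ± 4.83 and 16.9 ± 4.89 CPM (SD, n = 3). Ptgr1, a prostaglandin reductase, was at 65.2, 63.3 and 51 CPM in control and 45, 47.7 and 48.2 CPM in exposed replicates 1, 2 and 3. These libraries did not overlap (log2 fold change -0.35, SE 0.13, edgeR adjusted p = 0.692).

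Downstream of the receptors the median log2 fold changes ran from -0.032 to 0.17, against -0.0047 over all tested genes. In order, they were 0.027 for 8 G protein alpha subunits and 0.017 for 13 adenylyl cyclases and beta phospholipases C. For 7 receptor kinases and arrestins the median was 0.17. It was 0.042 for 16 genes of the cyclic AMP kinase and of cyclic AMP breakdown. For 9 tested genes listed as cyclic AMP response genes it was -0.032. That last list includes Crebrf, the gene of a regulatory factor of CREB3, and whether it responds to cyclic AMP was not tested. In replicates 1 and 2 only, the same medians were 0.087, 0.038, 0.12, 0.25 and -0.20, against -0.0032 over all tested genes. With replicates 1 and 2 only, 9 genes of these lists were called higher (background 14.2%), namely Gnaq, Adcy9, Plcb4, Grk3, Grk4, Prkar2b, Pde3b, Pde8a and Crebrf. In the same fit 4 were called lower (background 12.9%), Gnai2, Arrb2, Prkaca and Dusp1. Gnas, the Gs subunit, was at 817 ± 130 CPM in control and 799 ± 14.9 CPM in exposed ovaries (SD, n = 3).

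**Figure D5:**
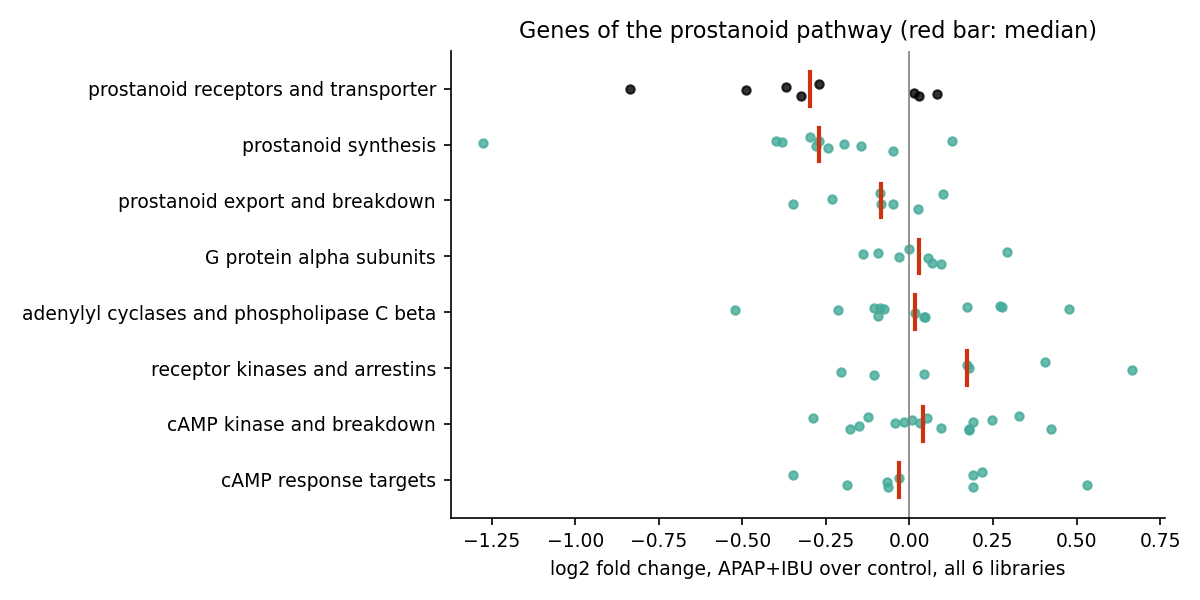
Fitted log2 fold change (APAP+IBU over control, all 6 libraries) of each tested gene of the receptor and transporter set (black) and of the 7 pathway lists (green), with the median of each list as a red bar. The medians ran from -0.30 for the receptors and transporter to 0.17 for the receptor kinases and arrestins, and no gene shown passed an adjusted p of 0.05.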

How the data were processed

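The authors mapped the reads to mm10 with TopHat2 2.0.14 and Bowtie2 2.1.0, counted them per Ensembl gene with HTSeq 0.6.1 and deposited raw counts, without normalisation. From the deposited counts, a quasi-likelihood model was fitted in edgeR 4.0.16 (R 4.3.3) to all 20167 genes past its expression filter, with TMM normalisation and Benjamini-Hochberg adjusted p-values. DESeq2 1.42.0, a later version than the authors', was the other test. The 95% intervals came from the fitted standard errors. Log2 CPM used a prior count of 1. GENCODE M21 (GRCm38, the assembly of mm10) gave symbols, positions, exon lengths and GC content. The length and GC correction was a loess fit (span 0.3) in each library. In simulated counts with known changes, edgeR and DESeq2 missed part of the changed genes and called some unchanged ones. With 3 libraries against 3, edgeR missed more of the changed genes, and DESeq2 called more unchanged ones. This limits single calls, and also the reading of a lack of calls in edgeR.

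The members and the lists were chosen with earlier results of these data known. Named are all members, and list genes that were called or whose groups did not overlap past a fold of 0.75 or its inverse, at most 12 by size, as well as the 3 genes nearest to each of 2 members. Other list genes named here were chosen after their values were seen. Of the list symbols, only Ahsp matched no identifier. Pairs of libraries of a group differed by a chi-square per degree of freedom of 18.8 to 158, so none was a duplicate. Nothing ties replicate 1 of a group to a given litter, and p-values measure the spread between pools. Protein sequences were not used here.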

Additional observations from a re-analysis of the deposited data

How the results depend on the processing

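With all 6 libraries, edgeR called 0 genes at an adjusted p of 0.05. DESeq2 gave 235, all genes with at least 1 count 120, and the replicate block 2. Leaving out one library gave 0 to 1064, the last without control replicate 3. With the replicate 3 libraries left out there were 5607, with DESeq2 there 5748, and with the length and GC correction there 2860. Of the receptor and transporter genes, these 3 fits called 1, 1 and 2, and each other alternative, the replicate block among them, called 0. Of the pathway genes they called 20, 20 and 9, and leaving out one library gave 0 to 2, the last without control replicate 3. The cause of these shifts was not tested.

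Of 112 log2 fold changes of the 8 tested members under alternatives, 93 kept their sign and stayed short of the threshold, 4 kept their sign and passed it, all with replicates 1 and 2 only (Tbxa2r in 3 fits, Ptger4 in 1), and 15 changed sign, all at an adjusted p from 0.323 up. With replicates 1 and 2 only, Ptger2 was at -0.15, at -0.16 with DESeq2 and at -0.40 with the length and GC correction. With that correction there, Ptgfr was at -0.38 and Slco2a1 at -0.20. With the correction on all 6 libraries, Ptger2 was at -0.077, Ptgfr at -0.25 and Slco2a1 at -0.062. Leaving out one library, values ran from -0.55 to 0.15 for Ptger1, from -0.38 to 0.29 for Ptger2, from -0.45 to 0.020 for Ptger3 and from -0.16 to 0.11 for Ptgfr. Tbxa2r, Ptger4 and Ptgir were below 0 under every alternative run, Tbxa2r from -1.41 to -0.52.

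Same-numbered libraries did not deviate together across all tested genes (correlations of -0.0695, -0.0151 and -0.044), and with the replicate block no member changed its sign or its side of the threshold. Ptgdr, Ptgdr2 and Ptger2 had the lowest counts, so depth limits them most, beside the spread between pools.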

Other observations

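Further cell type lists gave these summed levels. The 8 pericyte and smooth muscle markers ran from 362 to 483 CPM, the 8 mesonephros markers from 195 to 232 CPM, the 8 neuron and glia markers from 38 to 49.8 CPM and the 9 markers of the ovarian soma from 1081 to 1444 CPM, each with overlapping groups. Of the mesonephros sum, Emx2 alone made up 124 to 177 CPM. The 8 germ cell markers ran from 1295 to 1643 CPM. The 11 erythroid markers summed to 7025, 17113 and 10902 CPM in control and 3178, 5412 and 10174 CPM in exposed replicates 1, 2 and 3. The 7 mast cell markers, of which Mcpt4 and Fcer1a had at most 2 counts in any library, ran from 10.6 to 53.8 CPM, mostly from Hdc.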
